A study of Mus musculus with 34 samples.

Results

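The genes described here are 34 markers of proliferation and DNA replication, divided into 13 genes of S phase and 21 genes of G2 and mitosis (G2/M). They were chosen by their symbols and not by their measured values, though with earlier results of these data known. The deposited tables listed 33 of the 34, among 9851 genes listed in at least 1 table. Of these, 26 were listed in the first table, 33 in the rescue table and 31 in the neutrophil table, and 26 were listed in all 3. Bub1, a kinase of the spindle checkpoint, was listed in none of the tables. Ccnb1, Aurka, Kif11, Kif20a, Nusap1, Cenpe and Rrm2 were further missing from the first table, and Ccnb1 and Nusap1 from the neutrophil table. Of the listed members, 22, 23 and 28 in the first, rescue and neutrophil table had a mean above the lower quartile of all genes of that table, and every listed gene was tested.

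A dividing cell first copies its DNA in S phase and then, in G2 and mitosis, condenses and separates its chromosomes. The S phase members encode the replicative MCM helicase and its partner Gins2, the sliding clamp Pcna, the nucleotide-making enzymes Rrm1, Rrm2 and Tyms, and Fen1 and Lig1, which trim and join the fragments of the lagging strand. The G2/M members encode cyclins and their kinase Cdk1, mitotic kinases, motor and spindle proteins, centromere proteins, and Cdc20 and Ube2c, which serve the ubiquitin ligase that ends mitosis. Macrophages of the colonic lamina propria are largely replaced by incoming blood monocytes, and few of them divide.

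RNA was measured in 34 libraries of macrophages sorted as CD45+ CD11b+ CD11c-intermediate CD64+ cells without Ly6c and CD103 from the colonic lamina propria of C57BL/6 mice, the cells of the study of macrophages deficient in the alpha chain of the IL-10 receptor. The first table holds 3 libraries titled IL10R and 3 titled CXhet, with no treatment. The rescue table holds 4 libraries titled 5C5_IL10R_P19, 4 titled 5C5_IL10R_abx from mice given antibiotics in drinking water, 5 titled 5C5_IL10R, 3 titled IL10R_littermate_abx given the same antibiotics, and 2 titled CX. These are called IL10R_P19, IL10R_abx, IL10R, littermate_abx and CX below. The titles of only the first 3 carry 5C5, whose meaning the labels do not give. Mice of these tables were 6 to 7 weeks old. The neutrophil table holds 3 libraries titled ko_ly6g, 3 titled ko_igg and 4 titled wt, taken 4 weeks after chimerism. The treatment label of all 10 names bone marrow chimeras injected with anti-Ly6g, which contradicts the titles, and groups here follow the titles. P19 is taken to mean the IL-23 subunit p19, since the series title names IL-23. The labels name no Cre driver and no genotype for CX, CXhet or littermate, and they do not say that libraries came from separate animals, so p-values cover only how these libraries vary, which may be technical variation.

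Depth, as recovered reads over the listed genes, ranged between 1458726 and 2487074 for libraries of the first table, 747046 and 2775974 in the rescue table, and 1028567 and 4525047 for 8 libraries of the neutrophil table. Il10ra stood at 9.26 to 361 in IL10R and 371 to 689 in CXhet, and the highest of these IL10R values, next to the CXhet range, belonged to the library labelled IL10R_2. In the rescue table Il10ra was at most 31.2 in the 3 groups titled IL10R, against at least 138 in littermate_abx and CX, and in the neutrophil table it was 32.2 to 65.1 in ko_ly6g, 77.9 to 111 in ko_igg and 247 to 827 in wt. Of 14 macrophage markers, 11 or 12 were listed in each table, among them Csf1r, Cd68 and C1qa. All 22 epithelial markers, Epcam and Cdh1 included, were listed as well, with values above 0 in all 34 libraries, although the sort selects CD45+ cells. Of 14 T and NK cell markers 2 to 4 were listed and not Cd3d, Cd3e or Cd3g. In these bulk libraries, fewer cycling cells and less RNA of these genes per cycling cell cannot be told apart.

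The promoters of 27 of the 34 members were found in the RefSeq promoter table (GRCm38.p6). The CCAAT box and the cell cycle genes homology region (CHR) are known from the promoters of G2/M genes, and E2F sites from those of S phase genes. Searched on both strands from 250 bases before to 50 bases after each start, a CHR written as TTTGAA or TTCGAA was present in 12 of 16 windows of G2/M members, in 3 of 15 windows of S phase members and in 19.2% of all 32851 promoter windows. CCAAT was present in 14 of 16 G2/M windows, 9 of 15 S phase windows and 37.4% of all. An E2F sequence (TTTCCCGC, TTTGGCGC, TTTCGCGC or TTTGCCGC) was present in 1 of 16 G2/M windows, 5 of 15 S phase windows and 2.26% of all. TTCGAA reads the same on both strands, and E2F matches on opposite strands can overlap. A match is a run of letters and not a measured binding site.

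The 200 bases before the start are shown for 6 members, chosen after their values were seen because the results below turn on them: 3 G2/M genes (Cdc20, Ube2c, Ccnb2) and 3 S phase genes (Rrm2, Mcm7, Pcna). They run 5′ to 3′ on the gene's strand, and capitals mark every match to the 3 kinds of element on either strand. The windows are chr4:118437344-118437543 on the minus strand for Cdc20, chr2:164769729-164769928 on the plus strand for Ube2c, chr9:70421555-70421754 on the minus strand for Ccnb2, chr12:24708054-24708253 on the plus strand for Rrm2, chr5:138171884-138172083 on the minus strand for the upstream of both starts of Mcm7, and chr2:132253181-132253380 on the minus strand for Pcna.
Cdc20: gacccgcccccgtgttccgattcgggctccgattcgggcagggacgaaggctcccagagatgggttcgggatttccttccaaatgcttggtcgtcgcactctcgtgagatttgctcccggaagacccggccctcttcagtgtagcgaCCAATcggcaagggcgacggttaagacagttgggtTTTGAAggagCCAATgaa
Ube2c: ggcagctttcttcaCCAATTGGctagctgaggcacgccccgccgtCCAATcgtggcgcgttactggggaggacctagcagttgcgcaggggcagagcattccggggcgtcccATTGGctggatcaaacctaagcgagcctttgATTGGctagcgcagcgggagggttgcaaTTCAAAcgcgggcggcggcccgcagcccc
Ccnb2: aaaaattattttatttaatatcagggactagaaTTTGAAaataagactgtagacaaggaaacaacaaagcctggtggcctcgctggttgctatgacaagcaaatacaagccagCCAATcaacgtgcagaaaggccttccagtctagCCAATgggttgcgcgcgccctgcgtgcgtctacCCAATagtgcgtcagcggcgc
Rrm2: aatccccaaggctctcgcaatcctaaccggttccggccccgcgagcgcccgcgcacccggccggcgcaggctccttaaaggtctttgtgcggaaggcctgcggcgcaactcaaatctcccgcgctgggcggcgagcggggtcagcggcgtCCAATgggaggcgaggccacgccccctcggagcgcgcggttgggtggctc
Mcm7: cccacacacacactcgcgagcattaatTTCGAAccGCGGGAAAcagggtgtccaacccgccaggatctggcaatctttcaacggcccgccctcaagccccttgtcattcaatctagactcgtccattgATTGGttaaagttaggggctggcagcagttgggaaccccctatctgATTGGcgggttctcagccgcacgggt
Pcna: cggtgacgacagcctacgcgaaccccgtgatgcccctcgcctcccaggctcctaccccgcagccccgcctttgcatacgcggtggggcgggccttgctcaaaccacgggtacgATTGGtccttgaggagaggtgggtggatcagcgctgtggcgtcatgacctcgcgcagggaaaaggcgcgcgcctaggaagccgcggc
In Cdc20 a CHR began 18 bases and CCAAT boxes 53 and 8 bases before the start, and in Ube2c a CHR began 29 bases before it with a CCAAT box at 57. In Mcm7 an E2F match stood at 165 and a CHR match next to it at 173, while Rrm2 and Pcna held only CCAAT boxes, at 50 and 87.

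The summed values give an outline of the members by library. The G2/M sum was 2407 to 4282 in ko_ly6g, 2753 to 4518 in ko_igg and 1259 to 2462 in wt, and the S phase sum was 1741 to 2111, 1912 to 2815 and 1092 to 1818. In the first table the G2/M sum was 1357 to 1863 in IL10R and 1019 to 1630 in CXhet, and the S phase sum 1124 to 1148 against 916 to 1107.3. In the rescue table the G2/M sum was 1259 to 2217 in IL10R_P19, 773 to 2109 in IL10R_abx, 1424 to 1987 in IL10R, 1077 to 1282 in littermate_abx and 897 and 1399 in CX. There, 1 IL10R_P19 library and 1 IL10R_abx library stood well above the others of their group.

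**Figure D1:**
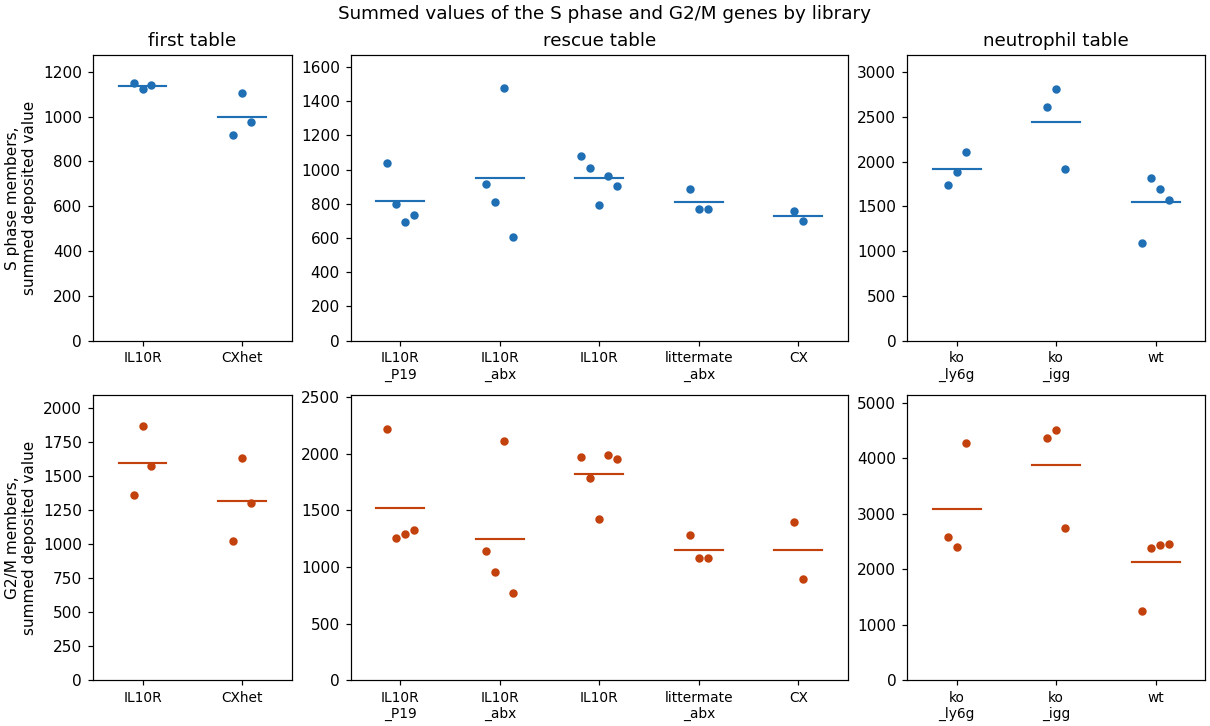
Summed deposited values of the S phase members (upper row) and the G2/M members (lower row) in each library, with 1 point per library and a bar at the group mean, for the groups of each table from 0 on a linear axis. The G2/M sums lie at 2753 to 4518 in ko_igg and 1259 to 2462 in wt, and at 773 to 2109 in IL10R_abx and 1424 to 1987 in IL10R. The tables were normalized separately and list different members, so heights compare only within a table.

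The neutrophil table held the most called members of the comparisons between deficient and control libraries. In ko_igg against wt, 9 of 31 listed members were called higher and none lower (limma, Benjamini-Hochberg adjusted p under 0.05), where 5.29% of 8793 genes were called higher and 4% lower. These were 5 of 18 G2/M members, namely Ccna2, Cdc20, Plk1, Aurka and Bub1b, and 4 of 13 S phase members, namely Rrm1, Rrm2, Fen1 and Mcm7. The median log2 change was 0.87 over the G2/M members and 0.71 over the S phase members, against 0.031 over all genes, and 30 of the 31 changes were above 0. Stmn1, which destabilises microtubules, was the exception, with a change of -0.17. The ko_igg and wt libraries did not overlap in 16 of the 31, all higher in ko_igg, where 15.4% of all genes lay apart in that direction.

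Cdc20, the activator of the anaphase-promoting complex, stood at 224, 220 and 159 in ko_igg_14, ko_igg_16 and ko_igg_18, against 50.6, 77.9, 90.6 and 43.0 in wt_1, wt_2, wt_3 and wt_4. The groups lay apart, and the log2 change of 1.65 (SE 0.32) was called by limma at adjusted p = 0.0105. Ccna2, the cyclin of S phase and G2, stood at 165, 145 and 165 in ko_igg and at 47.6, 68.7, 57.5 and 59.8 in wt, with a change of 1.43 (SE 0.28, limma adjusted p = 0.0104). Its 3 ko_igg libraries were close to each other, at 158 ± 11.7 against 58.4 ± 8.7 in wt (SD, n = 3 and 4). Plk1, a kinase that drives mitotic entry and spindle assembly, averaged 252 ± 32.3 in ko_igg and 104 ± 33.0 in wt, with a change of 1.33 (SE 0.31). Aurka, a kinase of the spindle poles, averaged 130 ± 38.3 against 62.6 ± 6.2 and changed by 1.00 (SE 0.24), and Bub1b, a spindle checkpoint protein, averaged 106.8 ± 15.3 against 54.8 ± 11.6 and changed by 0.96 (SE 0.25).

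Among the S phase members, Rrm2, the regulated subunit of ribonucleotide reductase, stood at 121, 138 and 66.0 in ko_igg, against 26.8, 42.2, 37.3 and 37.7 in wt. Every ko_igg library was above every wt library, and the change of 1.51 (SE 0.31) was called by limma at adjusted p = 0.0124. Rrm1, the partner subunit, changed by 1.05 (SE 0.24), with 381, 404 and 250 in ko_igg against 119, 189, 196 and 160 in wt. Fen1, the flap endonuclease, changed by 0.86 (SE 0.18), with 185, 179 and 147 against 80.4, 111, 89.4 and 92.3. Mcm7, an MCM helicase subunit, changed by 0.70 (SE 0.19, limma adjusted p = 0.0428), with 279, 356 and 238 against 143, 221, 179 and 169. Mcm7 was the called member nearest to the threshold, and it was not called when every library was rescaled to the same total. The other MCM subunits had changes of 0.24 for Mcm6 to 0.79 for Mcm2 and were not called.

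Several widely used proliferation markers were not called in ko_igg against wt. Mki67, which encodes the Ki-67 antigen, stood at 212, 308 and 128 in ko_igg and at 77.4, 103, 111 and 117 in wt, so the groups lay apart, with a change of 1.00 (SE 0.36, limma adjusted p = 0.103). Top2a, the topoisomerase that untangles sister chromosomes, stood at 408, 511 and 182 against 89.3, 219, 204 and 241, and ko_igg_18 fell inside the wt range. Pcna stood at 204, 213 and 225 against 122, 174, 214 and 194 and overlapped. Ube2c, the ubiquitin-conjugating enzyme of the anaphase-promoting complex, stood at 837, 825 and 558 in ko_igg and at 244, 434, 532 and 467 in wt, with a change of 0.85 (SE 0.32) and no overlap. Of the remaining G2/M members that were not called, Birc5 (survivin), the kinase Aurkb, the cyclin Ccnb2, Cdk1, the centromere genes Cenpa and Cenpe, the motors Kif11 and Kif20a and the spindle factor Tpx2 had changes from 0.57 for Cdk1 to 1.10 for Birc5. The S phase members Tyms, Gins2 and Lig1 had changes of 0.19, 0.71 and 0.76. The library ko_igg_18 was the lowest of its group in 28 of 31 members, and wt_1 was the lowest of its group in 27 of 31.

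**Figure D2:**
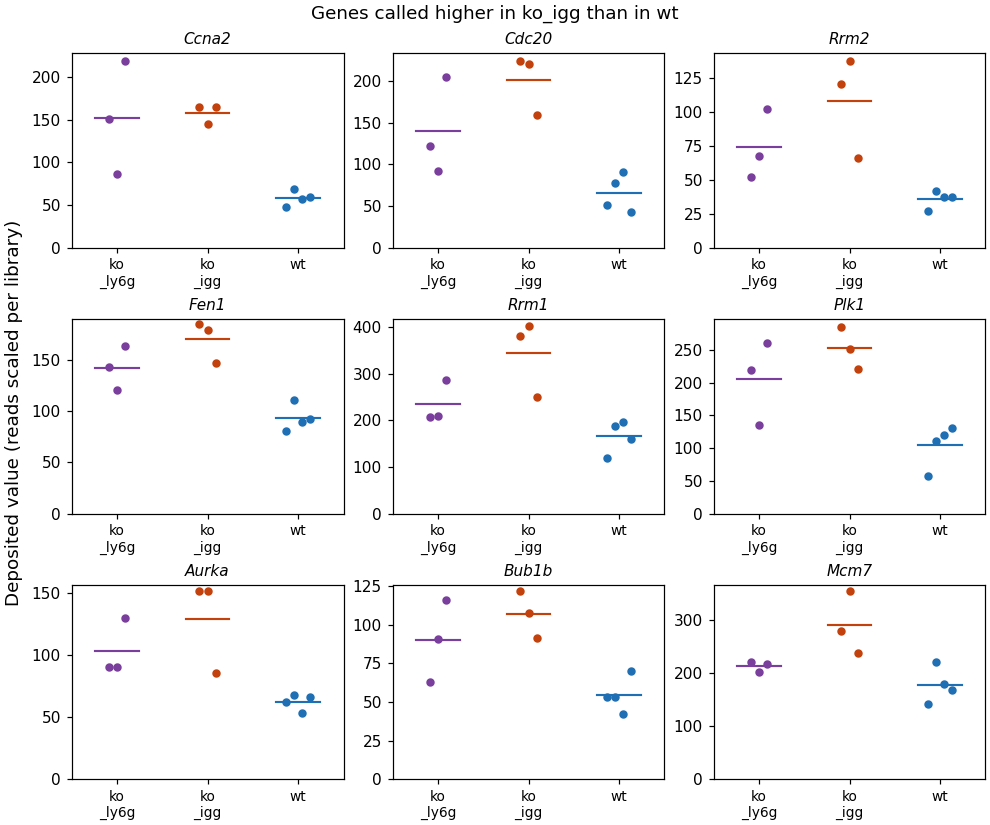
Deposited values of the 9 members called between ko_igg and wt, with 1 point per library and a bar at the group mean, in ko_ly6g, ko_igg and wt from 0 on a linear axis. In each panel the 3 ko_igg points lie above all 4 wt points, as for Cdc20 at 159 to 224 in ko_igg and 43.0 to 90.6 in wt.

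The calls in ko_igg against wt depended on the libraries entering the fit. Without ko_igg_14 no member was called, and without ko_igg_16 only Ccna2 was, while without ko_igg_18 or any single wt library 6 to 9 were called and the median change over the members stayed between 0.61 and 1.04 in all 7 of these fits. On reads, edgeR was run on 8 libraries, without ko_igg_16 and wt_3. It called 0 of 31 members (10 at an unadjusted p under 0.05), and limma on the same 8 libraries called 0 (11 unadjusted). The values of both left-out libraries were whole multiples of a fixed step too, so a count test with them was possible but was not run. Other markers moved with these groups. The 7 listed of 10 monocyte markers summed to 2110 to 3772 in ko_igg and 1253 to 1484 in wt, and the 7 listed of 12 neutrophil markers to 427 to 1270 against 124 to 289. The macrophage markers summed to 19684 to 29990 in ko_igg and 25381 to 86984 in wt, and the 22 epithelial markers to 59059 to 73436 against 35891 to 74252. The listed 8 of 12 markers of crypt base and transit cells, the dividing cells of the epithelium, summed to 786 to 1066 in ko_igg and 1063 to 1423 in wt. Lgr5, Ascl2, Olfm4 and Tnfrsf19 were the markers of these cells that the table does not list. The listed 4 of 10 dendritic cell markers summed to 297 to 354 in ko_igg and 693 to 1750 in wt. The library wt_1 had the highest macrophage sum and the lowest epithelial sum of its group. Without wt_1 the same 9 members were called, and the part of the other shifts in the result was not tested.

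Over the members, the median log2 change of ko_ly6g was -0.34 against ko_igg and 0.42 against wt. With 1 library left out the first ranged from -0.56 without ko_igg_18 to -0.22 without ko_igg_16, and the second was 0.23 without wt_1, 0.26 without ko_ly6g_7 and at most 0.52, without ko_ly6g_5. In ko_ly6g against ko_igg no member was called by limma (1 at an unadjusted p under 0.05) or edgeR (0 unadjusted), and limma called 0 of 8793 genes (203 unadjusted, and 70 unadjusted in edgeR). Of the 31 changes 29 were below 0, where the median over all genes was -0.0026. The members that lay apart were Mcm2, Mcm7 and Pcna, each lower in ko_ly6g, where 3.92% of all genes did so, and limma called 0% of genes. Pcna stood at 201.1, 199 and 185 in ko_ly6g_5, ko_ly6g_6 and ko_ly6g_7, against 204, 213 and 225 in ko_igg, so its groups were separated by less than the range within ko_igg. Against wt, Ccna2 was the 1 called member (151, 86.0 and 220 against 47.6 to 68.7, change 1.28, SE 0.28, limma adjusted p = 0.0286), where 2.92% of genes were called higher and 1.66% lower. The share of members called higher, 3.23%, was near that of all genes. The call of Ccna2 was lost without wt_3, wt_4, ko_ly6g_5 or ko_ly6g_7, and ko_ly6g_7 was the highest of its group in 24 of 31 members. Cdc20 stood at 122, 92.1 and 204 in ko_ly6g, all above wt, with a change of 1.06 (SE 0.32, limma adjusted p = 0.0930). In ko_ly6g against wt 8 of 31 members lay apart, all higher in ko_ly6g, where 12.1% of all genes did so. The monocyte markers summed to 1885 to 3237 in ko_ly6g, the neutrophil markers to 353 to 1753 and the crypt base and transit markers to 825 to 929.5, each apart from the wt range given above, and their part was not tested. Both comparisons with ko_igg share the ko_igg libraries, and both with wt share the wt libraries.

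In the rescue table, IL10R was compared with CX. Of 33 members 1 was called higher and none lower, where 3.01% of 8816 genes were called higher and 4.49% lower (265 higher and 396 lower, or 405 and 336 when every library was rescaled to the same total). The share of members called higher, 3.03%, was near that of all genes. The called member was Cdc20, at 68.9, 78.8, 55.5, 78.2 and 91.7 in IL10R_27, IL10R_32, IL10R_61, IL10R_67 and IL10R_68, against 22.8 and 29.0 in CX_1 and CX_3. The groups lay far apart, and the change was 1.48 on the log2 scale (SE 0.34, limma adjusted p = 0.0124). It was called by edgeR too. Of the 33 members 9 had an unadjusted limma p under 0.05, Cdc20 among them. All 20 G2/M members had changes above 0, with a median of 0.60, and 12 of 13 S phase members did, with a median of 0.38, against 0.015 over all genes. IL10R and CX did not overlap in 12 of 33 members, all higher in IL10R, where 17.7% of all genes lay apart in that direction. They included Ccna2 (93.9 to 138 against 59.8 and 68.3), Ube2c (230 to 346 against 114 and 224), and Rrm2 (a median of 28.9 against 17.6 and 17.6), none of which was called. Mki67 overlapped, at 118 to 163 in IL10R against 151 and 92.2 in CX, with a change of 0.17. The 19 other G2/M members had changes from 0.02 for Stmn1 to 1.00 for Aurka, and the S phase members from -0.10 for Mcm2 to 0.83 for Rrm2.

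This comparison rested on 2 CX libraries that differed from each other, since CX_1 was the higher in 27 of 33 members. Without CX_1 or without CX_3, where the lone CX library takes the spread of the other groups, no member was called, and the median change over the members was 0.76 and 0.32. Without IL10R_61 Birc5 was called beside Cdc20. The macrophage markers summed to 10267 to 14359 in IL10R against 24652 and 25432 in CX, and the epithelial markers to 30022 to 35408 against 27646 and 30753. The listed 5 of 10 dendritic cell markers summed to 249.7 to 308 in IL10R and 664 to 740 in CX, and the listed 2 of 14 T and NK cell markers to 54.96 to 99.4 against 136.7 to 149. The listed 5 of 12 neutrophil markers summed to 66.0 to 1445 in IL10R and 72.5 to 98.5 in CX. The part of these shifts in the result was not tested.

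In the first table no member was called between IL10R and CXhet by limma (4 at an unadjusted p under 0.05), where 8.76% of 9022 genes were called, 4.47% higher. The members nearest to the threshold were Bub1b and Fen1. Bub1b stood at 55.5, 150 and 62.4 in IL10R_1, IL10R_2 and IL10R_3, against 25.6, 38.2 and 27.8 in CXhet_1, CXhet_2 and CXhet_3, with a change of 1.38 (SE 0.38, limma adjusted p = 0.0536). Fen1 stood at 59.5, 88.1 and 89.4 against 41.0, 46.6 and 41.7, with a change of 0.83 (SE 0.24, limma adjusted p = 0.0611). Both lay apart between the groups, and edgeR called both, at adjusted p = 0.0447 and 0.0477, as did limma without IL10R_1. The highest Bub1b value belongs to the library labelled IL10R_2, whose Il10ra was near the CXhet level. Of 26 members 20 had changes above 0, with a median of 0.23 against -0.028 over all genes. IL10R and CXhet lay apart in 5 (Mcm2, Mcm5, Fen1, Birc5 and Bub1b), all higher in IL10R, where 15.2% of all genes did so, so the share of the members was near the background. Ube2c, the member with the highest mean in this table, stood at 197, 404 and 279 in IL10R against 137, 324 and 227 in CXhet, and Pcna at 275, 211 and 248 against 280, 270 and 246. Neither separated the groups. The other members had changes from -0.21 for Ccnb2 to 0.73 for Birc5, apart from Ccna2 at 0.82. Ccna2 overlapped, at 105.8, 139 and 83.6 in IL10R against 34.2, 113 and 55.6 in CXhet. The listed 6 of 12 neutrophil markers summed to 625.5 to 881 in IL10R against 107.03 to 179 in CXhet, and the epithelial markers to 16541 to 24151 against 21415 to 40581. The crypt base and transit markers (8 of 12 listed, without Lgr5 and Olfm4) summed to 727 to 858 in IL10R and 902 to 1304 in CXhet. The dendritic cell markers (4 of 10 listed) summed to 597 to 935 against 949 to 1590. The part of these shifts in the values of the members was not tested.

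**Figure D3:**
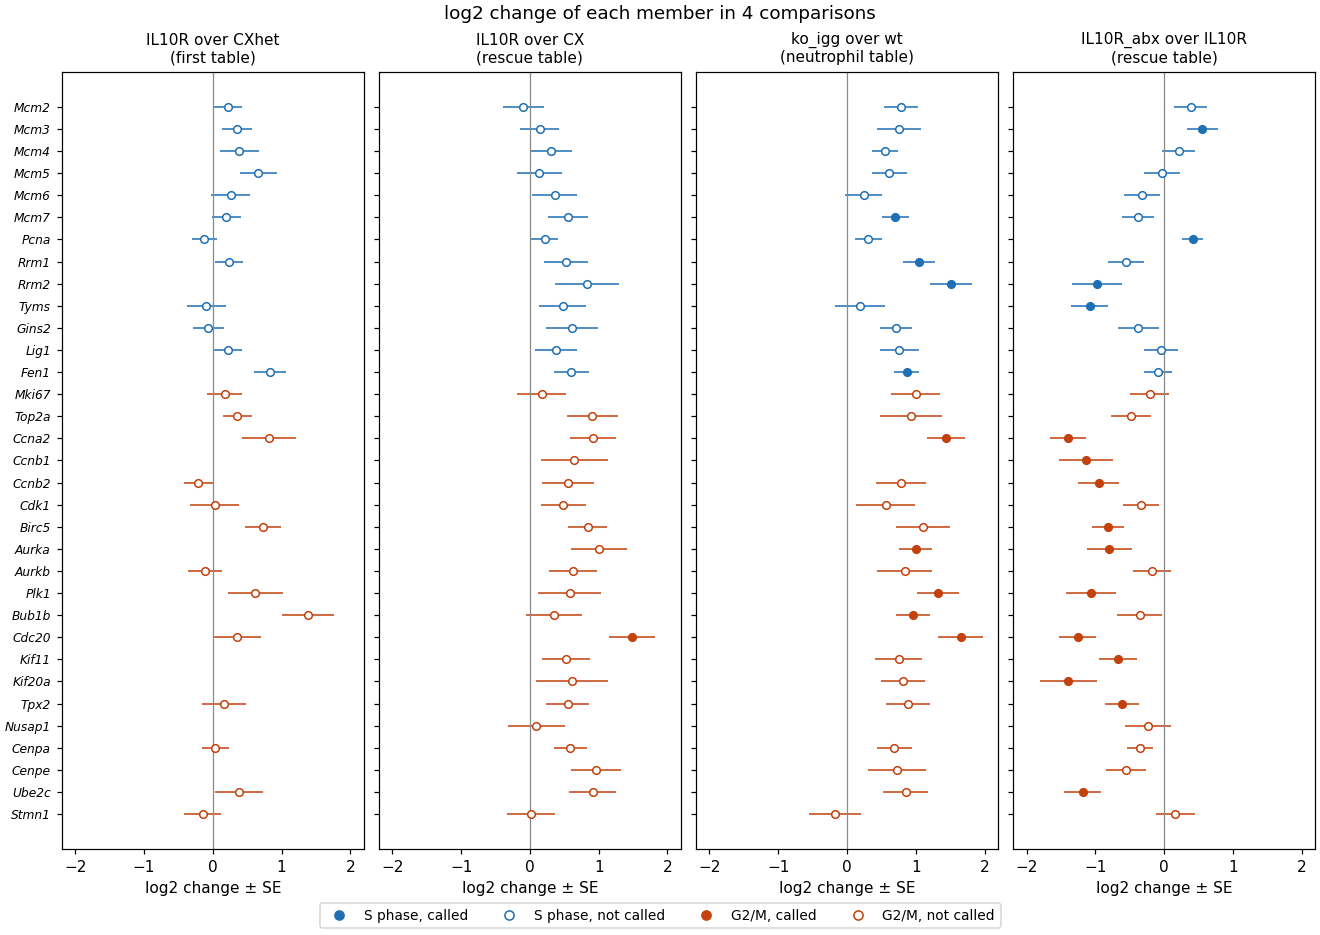
log2 change and standard error of each member in 3 comparisons of deficient with control libraries and in IL10R_abx over IL10R, with S phase genes in blue and G2/M genes in orange and filled points for called members. Cdc20 is filled at 1.48 in IL10R over CX, 1.65 in ko_igg over wt and -1.26 in IL10R_abx over IL10R, and missing points mark members that a table does not list.

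In IL10R_P19 against IL10R no member was called by limma (1 at an unadjusted p under 0.05) or by edgeR (1 unadjusted), where 1.81% of genes were called, and no member's groups lay apart, where 8.1% of genes did. The median change over the members was -0.21, against -0.0043 over all genes, and 30 of 33 changes were below 0. Cdc20 stood at 85.2, 39.96, 43.6 and 56.4 in IL10R_P19_100, IL10R_P19_105, IL10R_P19_106 and IL10R_P19_107, against 55.5 to 91.7 in IL10R, with a change of -0.44 (SE 0.27). One library decided much of the spread: IL10R_P19_100 was the highest of its group in 30 of 33 members, as for Plk1 at 106.96 beside 42.3 to 52.3, and without it the median change was -0.38. That library also had the highest epithelial sum of its group (34063, the others 27168 to 29641) and the lowest macrophage sum (13627, the others 18302 to 20686), and the dendritic cell markers summed to 361 to 579 in IL10R_P19 and 249.7 to 308 in IL10R. The part of these values was not tested. Against CX, which IL10R is also compared with, IL10R_P19 had no called member by limma (1 unadjusted) or edgeR (2 unadjusted), where 0.034% of genes were called. Its median change over the members was 0.30 (0.09 without CX_3, 0.15 without IL10R_P19_100 and 0.57 without CX_1), and 4 members lay apart and higher in IL10R_P19 (Aurka, Cdc20, Kif20a and Rrm2), where 11.9% of genes did so.

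The comparison of IL10R_abx with IL10R held the largest number of called members, mostly G2/M genes that were lower in IL10R_abx. Of the 33 members listed, 13 were called lower and 2 higher (limma). Here 27.9% of all genes were called lower and 27.7% higher, and the counts of members are to be read against these shares. Among the G2/M members 11 of 20 were lower and none higher, with a median change of -0.64, and among the S phase members 2 of 13 were lower and 2 higher, with a median of -0.09, against -0.0035 over all genes. With every library rescaled to the same total the median of all genes shifted to -0.20, 1851 genes were called higher and 3185 lower in place of 2441 and 2460, and the members had 17 lower and none higher.

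Ccna2 and Cdc20 were the 2 of 33 members whose groups lay apart, both lower in IL10R_abx. This was a smaller share than the 19.5% of all genes that did so. Ccna2 stood at 52.2, 31.97, 88.2 and 28.8 in IL10R_abx_160, IL10R_abx_161, IL10R_abx_495 and IL10R_abx_497, against 129, 121, 93.9, 130 and 138 in IL10R, with a change of -1.40 (SE 0.27, limma adjusted p = 1.87e-04). Cdc20 stood at 34.8, 20.7, 54.3 and 21.1 against 68.9, 78.8, 55.5, 78.2 and 91.7, with a change of -1.26 (SE 0.27, limma adjusted p = 5.72e-04). In both genes IL10R_abx_495 came close to the lowest IL10R library. Ube2c averaged 144 ± 68.7 in IL10R_abx and 304 ± 44.2 in IL10R (SD, n = 4 and 5) and changed by -1.19 (SE 0.27), and Birc5 averaged 60.8 ± 21.4 against 106.6 ± 27.9 and changed by -0.82 (SE 0.23). The mitotic cyclins Ccnb1 and Ccnb2 changed by -1.13 (SE 0.39) and -0.95 (SE 0.30), the kinases Plk1 and Aurka by -1.06 (SE 0.37) and -0.80 (SE 0.33), the motor proteins Kif20a and Kif11 by -1.39 (SE 0.42) and -0.67 (SE 0.28), and the spindle assembly factor Tpx2 by -0.61 (SE 0.25). Kif20a had 1, 5, 13 and 12 reads in the IL10R_abx libraries, so its value is the least precise of these. IL10R_abx_160, IL10R_abx_161 and IL10R_abx_495 had the lowest depths among the libraries of the rescue table, at 747046, 877518 and 877627 reads. The part of depth in the calls was not tested. The 9 G2/M members that were not called had changes from -0.56 for Cenpe to 0.16 for Stmn1. Reads of Ccnb1 and Ccnb2 may be shared with the annotated pseudogenes Ccnb1-ps and Ccnb2-ps.

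Of 13 S phase members 2 were called lower and 2 higher in this comparison, 15.4% each way. Both shares were below the 27.9% and 27.7% of all genes. Tyms, thymidylate synthase, stood at 17.4, 16.9, 39.0 and 14.4 in IL10R_abx and at 45.5, 55.0, 39.8, 48.6 and 33.8 in IL10R, with a change of -1.08 (SE 0.27, limma adjusted p = 0.00217), and Rrm2 changed by -0.98 (SE 0.37, limma adjusted p = 0.0303). Pcna went the other way, at 229, 182, 259 and 141 in IL10R_abx against 135, 176, 136, 144 and 151 in IL10R, with a change of 0.42 (SE 0.16, limma adjusted p = 0.0299). Mcm3 stood at 115, 69.6, 141 and 79.8 against 109, 78.8, 55.5, 57.0 and 45.8, with a change of 0.56 (SE 0.23, limma adjusted p = 0.0460). Both rises overlapped between the groups and were not called when every library was rescaled to the same total, and Pcna and Tyms have annotated pseudogenes that may share reads. The remaining 9 S phase members were not called, with changes from -0.55 for Rrm1 to 0.39 for Mcm2.

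**Figure D4:**
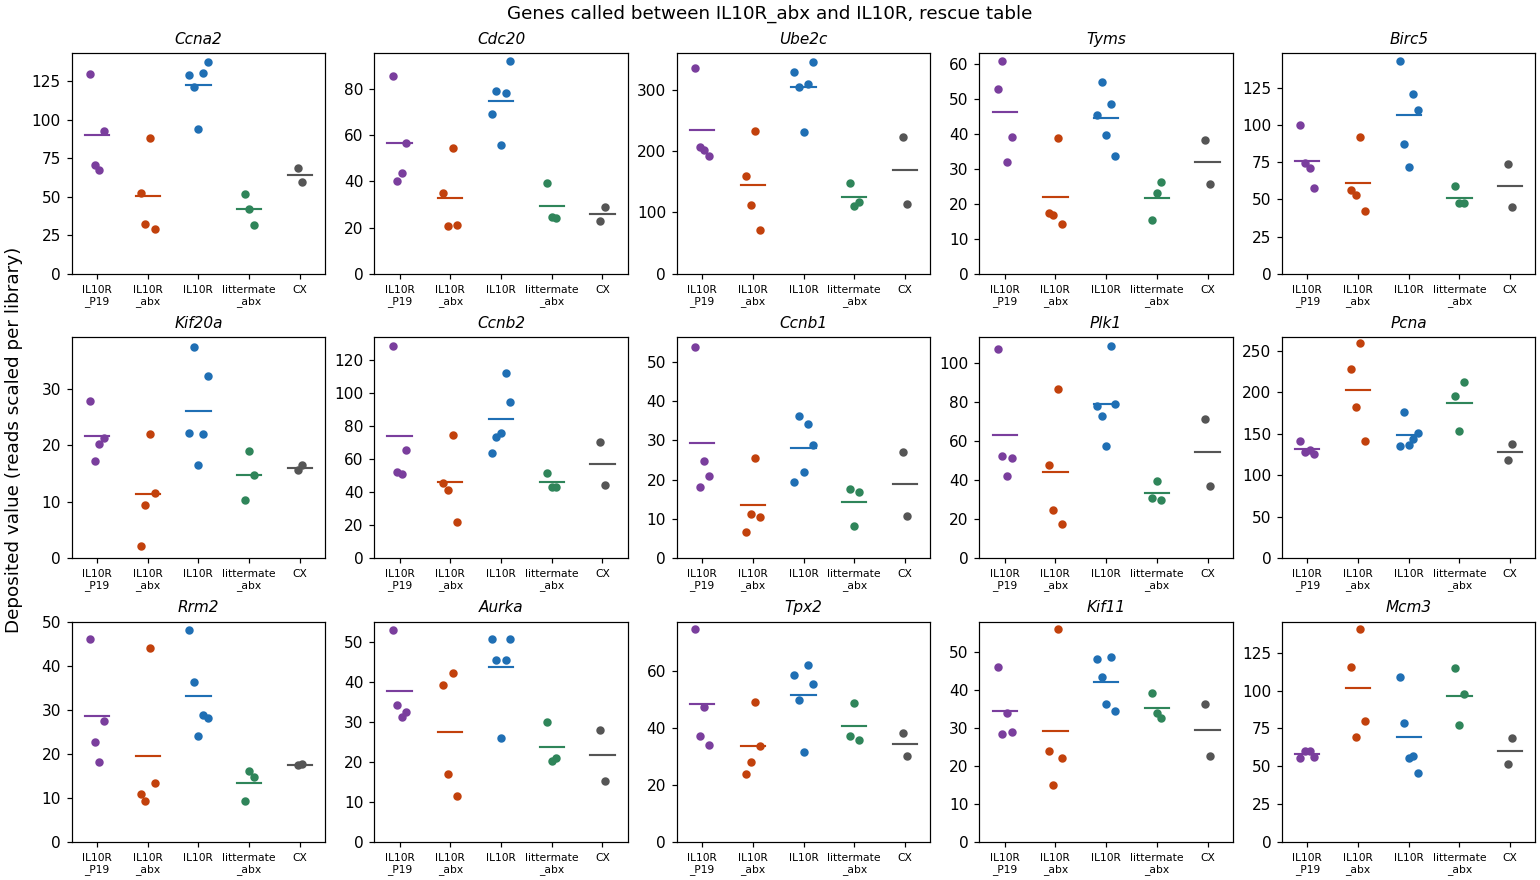
Deposited values of the 15 members called between IL10R_abx and IL10R in the 5 groups of the rescue table, with 1 point per library and a bar at the group mean, from 0 on a linear axis. In 13 panels the IL10R_abx mean lies below the IL10R mean, in those of Pcna and Mcm3 above it, and 1 IL10R_abx point, from IL10R_abx_495, stands above the rest of its group in most panels.

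The library IL10R_abx_495 was the highest of its group in 32 of 33 members. Mki67 stood at 276 in it and at 74.0 to 102 in the other 3, against 118 to 163 in IL10R, and Top2a at 387 and at 118 to 157, against 165 to 321. Without it 22 members were called lower and none higher, the median change was -0.75 in place of -0.38, and Mki67 (-0.63) and Top2a (-0.87) were among those called (limma adjusted p = 0.00850 and 0.00283). Without IL10R_abx_160, IL10R_abx_497 or IL10R_67 the count was 9, and without IL10R_abx_497 the median change was -0.19. In all 9 fits that leave out 1 library, 7 or more members were called lower. Over all 8816 genes, 4591 to 4909 were called in either direction in these fits.

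Several sums of cell type markers differed between the antibiotic groups and the groups they were compared with, those of dendritic cells in opposite directions. Such sums do not separate the mix of cells from the RNA of a marker per cell. The 22 epithelial markers summed to 5683 to 10623 in IL10R_abx against 30022 to 35408 in IL10R, and to 5651 to 8299 in littermate_abx against 27646 and 30753 in CX. The 12 listed macrophage markers summed to 35121 to 42167 in IL10R_abx against 10267 to 14359 in IL10R, and to 37987 to 44768 in littermate_abx against 24652 and 25432 in CX. The 8 listed crypt base and transit markers, which lack Lgr5 and Olfm4, summed to 607 to 980 in IL10R_abx against 484 to 729 in IL10R. The dendritic cell markers summed to 521 to 683 in IL10R_abx against 249.7 to 308 in IL10R, and to 508 to 646 in littermate_abx against 664 to 740 in CX. The T and NK cell markers summed to 178 to 328 in IL10R_abx against 54.96 to 99.4 in IL10R, and to 291 to 325 in littermate_abx against 136.7 to 149 in CX. IL10R_abx_495 had the lowest epithelial sum of its group and, at 2.74%, the highest share of macrophage markers. The part of these shifts in the change of the members was not tested.

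**Figure D5:**
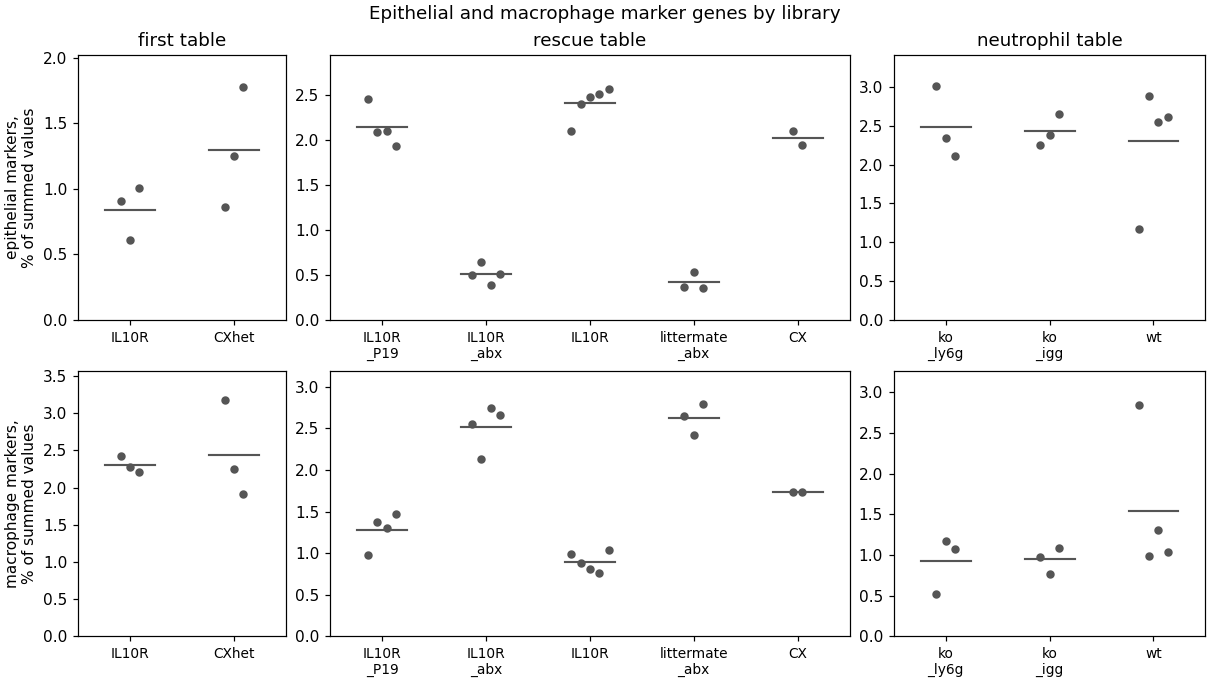
Epithelial markers (upper row) and macrophage markers (lower row) as a percent of the summed values of a library, with 1 point per library and a bar at the group mean, from 0 on a linear axis. Epithelial markers lie at 0.38 to 0.64% in IL10R_abx and at 2.10 to 2.56% in IL10R, and the library wt_1 lies at 1.17% with the other wt libraries at 2.55 to 2.89%.

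Antibiotics in control mice were read from littermate_abx against CX, 2 groups whose genotypes the labels do not give. No member was called by limma (2 at an unadjusted p under 0.05) or edgeR (1 unadjusted), although 31% of all genes were called (1240 higher and 1489 lower, or 878 and 1812 when every library was rescaled to the same total, which shifts the median of all genes to -0.12). The median change over the members was 0.03, against 0.02 over all genes, and -0.11 after that rescaling. It had no steady sign, at -0.19 without CX_3, 0.28 without CX_1 and -0.05, 0.05 and 0.14 without littermate_abx_490, littermate_abx_491 and littermate_abx_496. Pcna stood at 196, 153 and 213 in littermate_abx_490, littermate_abx_491 and littermate_abx_496, against 118 and 137 in CX, with a change of 0.54 (SE 0.21, limma adjusted p = 0.0605), and Mcm3 at 115, 77.2 and 98.0 against 51.8 and 68.9, with a change of 0.67 (SE 0.31). Both were higher in each littermate_abx library than in either CX library, as was Fen1. Ccna2 (51.6, 42.0 and 31.6 against 68.3 and 59.8) and Rrm2 (9.29, 16.3 and 14.8 against 17.6 and 17.6) were lower in each. In all, 3 members lay apart and higher and 2 apart and lower, where 30.5% and 29.5% of genes did so. Without littermate_abx_491 Pcna was called.

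In IL10R_abx against littermate_abx no member was called by limma (0 at an unadjusted p under 0.05) or edgeR (0 unadjusted), where 0.034% of genes were called, and no member's groups lay apart, where 7.41% of genes did. The median change over the members was 0.07, and it ranged from -0.22 without IL10R_abx_495 to 0.27 without IL10R_abx_497 when 1 library was left out. A difference of differences, the change of IL10R_abx over littermate_abx minus that of IL10R over CX, was tested in the same fit. Its control groups, littermate_abx and CX, may differ in more than the treatment, since the labels give no genotype for either. Antibiotics and the kind of control cannot be told apart in it. No member passed in limma (2 unadjusted) or edgeR (1 unadjusted), where 0.0907% of genes did. All 20 G2/M members had values below 0, with a median of -0.71, and 12 of 13 S phase members did, with a median of -0.13. The lowest p belonged to Cdc20, with -1.40 (SE 0.46, limma adjusted p = 0.246). As the IL10R and CX libraries enter both this difference and the comparisons above, they are not independent of each other.

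Other cell cycle genes, from lists written by function, were read in the same fits. In ko_igg against wt, 5 of 16 listed genes for chromatin and tubulin supply were higher and none lower, among them Lmnb1, a nuclear lamin, by 1.43 (SE 0.23), Ranbp1, a partner of the Ran GTPase, by 1.12 (SE 0.22) and the tubulin Tuba1c by 1.08 (SE 0.24). Of 34 other mitosis genes 3 were higher, including Cdca8, a partner of Aurkb, by 1.37 (SE 0.19) and the spindle protein Tacc3 by 1.02 (SE 0.22). Of 12 G1/S regulators 3 were higher and 2 lower, including the cyclin Ccnd2 at -1.13 (SE 0.27), and of 34 other replication genes and 18 cell cycle brakes none was called by limma (6 and 4 at an unadjusted p under 0.05). Over all genes 5.29% were called higher and 4% lower, and the 8.82% of the other mitosis genes called higher is not far above that. Of these 34 mitosis genes, though, 33 had changes above 0 and 1 below, and 17 had an unadjusted limma p under 0.05. So did 10 of 16 chromatin and tubulin genes and 6 of 12 G1/S regulators. The medians were 0.50, 0.68, 0.19, 0.38 and -0.16 for these 5 lists, against 0.031 over all genes. In ko_ly6g against wt, Cdca8 (0.91), Lmnb1 (0.92) and the transcription factor E2f2 (0.69) were called higher and Ccnd2 (-1.14) lower, where 2.92% of genes were called higher and 1.66% lower. Of these only the call of Cdca8 held when every library was rescaled to the same total.

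In the first table E2f2 (1.24, SE 0.24), Cks1b, a small subunit of cyclin-dependent kinases (1.02, SE 0.24), and Ranbp1 (0.81, SE 0.22) were higher in IL10R, and Ccnd2 (-1.14, SE 0.29) and E2f5 (-1.58, SE 0.41) were lower, out of 12 listed G1/S regulators, 17 brakes and 16 chromatin and tubulin genes, where 8.76% of all genes were called. Cks1b, E2f5 and Ranbp1 were not called when every library was rescaled to the same total. None of 32 other replication genes and 23 other mitosis genes was called by limma (4 of each list unadjusted). In IL10R against CX of the rescue table, the tubulin Tubb4b (1.16, SE 0.24) and the histone H2afx (1.25, SE 0.35) were the called genes of the 5 lists, where 3.01% of genes were called higher, and 3 of 10 G1/S regulators, 4 of 20 brakes, 5 of 35 other replication genes and 7 of 38 other mitosis genes had an unadjusted limma p under 0.05. In IL10R_P19 against IL10R the 1 called gene was Ccng1 (-0.53, SE 0.13). In IL10R_P19 against CX, IL10R_abx against littermate_abx and ko_ly6g against ko_igg, limma called none of the 5 lists' genes, with at most 5 of a list at an unadjusted p under 0.05.

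In IL10R_abx against IL10R the same lists held calls both ways: 1 higher and 9 lower of 38 other mitosis genes, none and 6 of 15 chromatin and tubulin genes, 3 and 6 of 35 other replication genes, 1 and 3 of 10 G1/S regulators, and 4 and 5 of 20 brakes. Over all genes 27.9% were lower and 27.7% higher, so the shares called lower in the other mitosis genes (23.7%) and the other replication genes (17.1%) were below the background. The 40% of the chromatin and tubulin genes was above it, as a description without a test. Tubb4b fell by 1.98 (SE 0.19), E2f2 fell by 1.80 (SE 0.22), the mitotic kinase Pbk fell by 1.69 (SE 0.32) and the cyclin-dependent kinase inhibitor Cdkn2b fell by 1.98 (SE 0.31). The stress-response gene Gadd45b rose by 2.03 (SE 0.20) and Mdm2, the ligase that restrains p53, by 0.90 (SE 0.17). In littermate_abx against CX, Gadd45b (1.56, SE 0.28) and Mdm2 (1.03, SE 0.23) were called higher, and Cdkn2b (-1.998, SE 0.42), the phosphatase Cdc25a (-1.05, SE 0.25), Ccnd2 (-1.39, SE 0.33) and Tubb4b (-1.07, SE 0.26) lower, where 31% of all genes were called.

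Counting can mix neighbouring genes for 6 members, whose exons overlap those of a listed gene on the opposite strand in GENCODE M21, and the use of strand is not stated. Cdc20 overlaps Elovl1, which had log2 changes of 0.37 (SE 0.16) in IL10R against CX, 0.51 (SE 0.17) in ko_igg against wt and -0.0094 (SE 0.13) in IL10R_abx against IL10R, none of them called. Ccna2 overlaps Exosc9, which had log2 changes of 0.54 (SE 0.55) in ko_igg against wt and -0.41 (SE 0.19) in IL10R_abx against IL10R, neither of them called. The other pairs are Fen1 with Tmem258, Gins2 with Gse1, Kif20a with Cdc23 and Mcm7 with Cops6. In IL10R_abx against IL10R, Gse1 (-0.64, SE 0.16) and Cops6 (-0.56, SE 0.18) were called lower, and Tmem258 and Cdc23 were not called.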

How the data were processed

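RNA of sorted mouse colonic macrophages was amplified by in vitro transcription and sequenced in 34 libraries. The submitters' processing notes name mm9, HISAT 0.1.6, HOMER and bcl2fastq, without their order. Each deposited table holds signal values that the authors obtained by dividing the reads of a gene by 1 factor per library, as the values show. In all 34 libraries the values were whole multiples of a fixed step within 0.01 read. Reads were taken as recovered for 32 of them, and those of ko_igg_16 and wt_3 were not used. The 3 tables were normalized separately, and comparisons stay within a table. Log2(value + pseudocount of 1.31, 0.997 or 0.982 in the first, rescue and neutrophil table) entered limma 3.58.1 in R 4.3.3 with an intensity trend and robust variances, all groups of a table in 1 fit, and Benjamini-Hochberg adjustment over all listed genes at 0.05. A fold change on this scale understates low genes. The edgeR 4.0.16 quasi-likelihood test on recovered reads was an alternative. Counts at an unadjusted p are given without the number of all genes at that threshold, except in ko_ly6g against ko_igg. Pairs of libraries with recovered reads in a group differed by more than counting noise (chi-square of at least 3.58 per degree of freedom). Without such reads, ko_igg_16 and wt_3 were not compared in this way, and all libraries were kept as replicates. The fits were tested on simulated data, with the changed genes drawn from those with a mean above the median of a table. In ko_igg against wt, 4-fold changes were recovered for 95% of the changed genes and 2-fold changes for 36%. For 2-fold changes the share was 34% in IL10R against CXhet and 73% in IL10R against CX. Members with lower means were not covered by these shares. Members and gene lists were chosen with earlier results of these data known. Values per library are given for members that were called, whose groups lay apart in a described comparison, or whose mean was highest, with Mki67 added after values were seen. Of the other lists, up to 6 called genes of lowest adjusted p are named per comparison.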

Additional observations from a re-analysis of the deposited data

Results flagged for a closer look

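In groups of 4 or 5 libraries, 14 of 130 member and group pairs held 1 library far from the rest by Dixon's criterion. Chance alone reaches this in about 1 of 20 independent groups. Members of a library rose and fell together, so the 130 pairs are not independent and 14 cannot be set against that rate. In IL10R_P19_100, 6 members stood high: Top2a at 286 (154 to 164 in the other libraries of the group), Cdk1 at 117 (64.7 to 66.4), Aurka at 53.0 (31.3 to 34.3), Plk1 at 106.96 (42.3 to 52.3), Cenpa at 234 (128 to 140) and Ube2c at 335 (192 to 206). All 6 are genes of G2 and mitosis.

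In IL10R_abx_495, 4 members stood high, from both phases. Mki67 was at 276 (74.0 to 102), Top2a at 387 (118 to 157), Rrm2 at 44.1 (9.40 to 13.5) and Tyms at 39.0 (14.4 to 17.4). Low values stood apart in wt_1 for Aurkb at 32.7 (99.6 to 107.2) and Tpx2 at 47.6 (64.9 to 66.0), in IL10R_61 for Aurka at 26.1 (45.6 to 50.7) and in IL10R_27 for Stmn1 at 33.8 (63.3 to 74.4). The groups of 3 libraries or fewer were not examined in this way.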

How the results depend on the processing

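Removing genes in the lower quartile of means ended 1 of the named calls (Ranbp1 in IL10R against CXhet). In IL10R_abx against IL10R, the called members Aurka, Kif11, Kif20a, Ccnb1, Tyms and Rrm2 were removed by this filter and not tested. It left 23 members to test there, and the other 9 called members kept their calls. A pseudocount of 10 ended 1 call (Kif11 in IL10R_abx), and rescaling libraries to the same total ended 9, given beside the results above. With edgeR 2 members were called in IL10R against CXhet, 0 in ko_igg against wt and 0 in ko_ly6g against wt, and over all genes 353 were called in IL10R_P19 against IL10R (160 in limma), 81 in ko_igg against wt (817) and 74 in ko_ly6g against wt (403). Limma on the same 8 libraries of the neutrophil table, an alternative chosen after seeing the data, gave 86 genes and 0 members in ko_igg against wt and 69 genes and 0 members in ko_ly6g against wt. With the replicate number as a block, 1 member (Bub1b) was called in IL10R against CXhet in place of 0. The numbers were not taken as pairs, since same-numbered libraries correlated at -0.08, 0.16 and 0.32 in their deviations and IL10R_1 correlated best with CXhet_3.

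Leaving out 1 library at a time gave 276 to 788 called genes and 0 to 2 called members in IL10R against CXhet, 23 to 813 genes and 0 to 2 members in IL10R against CX, 16 to 378 genes and no member in IL10R_P19 against IL10R, and 0 to 3 genes in IL10R_P19 against CX. It gave 9 to 22 members in IL10R_abx against IL10R, 2 to 397 genes in IL10R_abx against littermate_abx, 1477 to 2525 genes and 0 to 1 member in littermate_abx against CX, 302 to 1339 genes and 0 to 9 members in ko_igg against wt, and 148 to 680 genes and 0 to 1 member in ko_ly6g against wt. In IL10R_abx against IL10R 4591 to 4909 genes were called in these fits. The change of Mki67 in IL10R against CX ranged from -0.18 without CX_3 to 0.52 without CX_1. That of Ccna2 in ko_ly6g against ko_igg ranged from -0.47 without ko_ly6g_7 to 0.20 without ko_ly6g_6. The cause of these shifts was not tested. Members with few reads, such as Kif20a and Ccnb1 in IL10R_abx, are limited by depth.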
